A study of Homo sapiens with 10 samples.

Results

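Hemidesmosomes are the junctions that rivet the base of an epithelial cell to its basement membrane, and laminin-332 is the matrix protein they hold on to. 9 genes of this system were named, namely the integrin chains ITGB4, ITGA6 and ITGA3, the tetraspanin CD151, the laminin-332 chains LAMA3 and LAMB3, the transmembrane collagen COL17A1, and the plakins DST and PLEC. Spots were taken where the array annotation gave 1 of these symbols, which found 13 of the 31332 spots with a single symbol and 7 of the 9 genes. LAMA3 and COL17A1 had no spot in the annotation used and are not analysed here. The tested genes numbered 18334 in all. The samples were 5 RWV and 5 Mono cultures of A549, a human lung adenocarcinoma cell line often used as a model of alveolar epithelium. RWV cells had grown in rotating wall vessels, slowly turning fluid-filled chambers in which cells stay in suspension and commonly form aggregates, and Mono cells had grown as monolayers on a flat surface. All cultures were of this 1 line, with no treatment named, and were fed Dulbecco's medium containing foetal calf serum (10%) and glutamine (4 mM), and each array is described as a biological replicate. The question put by the design is how gene expression in RWV cultures compares with that in monolayers.

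In a hemidesmosome the integrin α6β4 spans the cell membrane. Outside the cell it binds laminin-332, and inside it is tied by the plakins plectin and the epithelial form of dystonin to keratin filaments. The collagen COL17A1 and CD151 complete the junction. The integrin α3β1 binds the same laminin but joins actin-based adhesions, also in a complex with CD151. In the lung these genes are best known from the basal cells of the airway, while alveolar epithelium and many carcinomas carry laminin-332 and α6β4 without full hemidesmosomes.

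The stretches of 250 bases before annotated start sites are shown for the laminin-332 chains and for ITGA6, because LAMB3 and ITGA6 were both higher in RWV cultures and AP-1, a family of transcription factors, is known to act on laminin-332 genes. Capitals mark the AP-1 motif TGANTCA, which reads the same on both strands. The sequences are those of RefSeq, written 5′ to 3′ in the direction of the gene.
LAMB3, start 3 (GRCh38.p14, chr1:209651375-209651624, - strand): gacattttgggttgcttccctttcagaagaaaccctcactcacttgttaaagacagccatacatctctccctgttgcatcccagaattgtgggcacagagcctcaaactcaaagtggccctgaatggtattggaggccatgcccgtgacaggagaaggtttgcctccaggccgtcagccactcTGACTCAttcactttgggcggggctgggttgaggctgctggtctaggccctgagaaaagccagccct
LAMB3, start 1 (GRCh38.p14, chr1:209652426-209652675, - strand): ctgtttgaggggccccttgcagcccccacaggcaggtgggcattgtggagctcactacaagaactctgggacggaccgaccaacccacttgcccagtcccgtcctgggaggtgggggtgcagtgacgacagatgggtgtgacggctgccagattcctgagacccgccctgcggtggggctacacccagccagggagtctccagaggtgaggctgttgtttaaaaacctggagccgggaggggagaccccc
LAMA3 (GRCh38.p14, chr18:23872770-23873019, + strand): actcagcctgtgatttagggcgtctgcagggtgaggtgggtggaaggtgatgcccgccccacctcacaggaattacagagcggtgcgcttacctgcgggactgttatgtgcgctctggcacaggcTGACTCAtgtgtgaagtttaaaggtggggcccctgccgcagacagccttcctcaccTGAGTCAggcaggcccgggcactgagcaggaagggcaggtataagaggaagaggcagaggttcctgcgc
ITGA6, start 1 (GRCh38.p14, chr2:172427086-172427335, + strand): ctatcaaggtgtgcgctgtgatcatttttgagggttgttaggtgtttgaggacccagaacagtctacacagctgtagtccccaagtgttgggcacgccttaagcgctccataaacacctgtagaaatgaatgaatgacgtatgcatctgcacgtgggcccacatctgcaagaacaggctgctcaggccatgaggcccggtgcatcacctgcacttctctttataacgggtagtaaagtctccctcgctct
ITGA6, start 2 (GRCh38.p14, chr2:172427336-172427585, + strand): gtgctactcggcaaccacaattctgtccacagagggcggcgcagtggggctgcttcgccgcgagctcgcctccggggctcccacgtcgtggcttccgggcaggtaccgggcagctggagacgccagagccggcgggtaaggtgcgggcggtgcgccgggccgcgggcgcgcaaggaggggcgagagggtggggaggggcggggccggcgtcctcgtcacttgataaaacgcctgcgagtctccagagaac
The motif stood in the last of the 3 LAMB3 windows, beginning 67 bases before the start site, and in the LAMA3 window 125 and 69 bases before it, but in neither ITGA6 window. Of the 35116 windows of this length in the table, 6.57% held it. The table had windows for 5 of the 9 genes (LAMB3, LAMA3, ITGA6, COL17A1 and DST), 10 in all, of which 2 held the motif. These matches describe the letters only, and a part of AP-1 in the changes of these genes was not tested.

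The arrays differed in level, and the groups differed in their brightest spots. The median deposited intensity was 114 to 138 on RWV arrays and 122 to 184.5 on Mono arrays. The 75th percentile was 875 to 1277 on RWV arrays and 921 to 1685 on Mono arrays, highest on Mono 4 and Mono 5. Among spots at 60000 or above, 89.3% to 93.1% on RWV arrays and 5.84% to 8.45% on Mono arrays sat at the top of the recorded range. This split followed the culture groups on every array, so readout and culture cannot be told apart at the top of that range. No spot of the 7 genes came near that range, their highest deposited intensity being 24107, for LAMB3. Arrays 1 to 3 of each group had a 5th percentile of 8 to 20 and arrays 4 and 5 of 0 to 4, so values are also given within these array sets 1 and 2. The proliferation marker MKI67 was higher on RWV 3, at 7.78 on the log2 scale, than on the other RWV arrays (5.95 to 6.76), against 8.66 to 9.66 on Mono arrays, and its part in the results was not tested. The markers of a lung epithelial line, EPCAM, CDH1, KRT7, KRT8, KRT18 and KRT19, were all measured above the dim level, with a summed normalised intensity of 66890 to 116634 in RWV and 59928 to 94521 in Mono cultures. Of these 6 genes KRT7 fell, to 7094 in RWV against 23300.2 in Mono cultures, and KRT19 rose, to 44806 in RWV against 15294 in Mono cultures, with log2 changes of -1.71 ± 0.21 and 1.55 ± 0.36 (limma adjusted p = 0.00014 and 0.0066), and the other 4 did not pass. KRT19, KRT8 and KRT18 reached the top of the recorded range, with highest deposited intensities of 65474, 65484 and 65481. Their changes and the sums above could be understated for that reason. Of the basal cell markers 3 of 4 were measured, and their sum was 714 to 3587 in RWV against 373 to 578 in Mono cultures. KRT15 was the 1 that passed (1447 against 385, log2 change 1.78 ± 0.44, limma adjusted p = 0.0087), while KRT5 was dim on every array and KRT14 was at 102 in RWV against 84.7 in Mono cultures. Summed markers of fibroblasts (4 of 4 measured), endothelium (3 of 3) and leukocytes (3 of 3) ranged from 91.4 to 184 in RWV and from 102 to 244 in Mono cultures, and none of these 10 genes passed the test. In such bulk RNA, fewer cells of a type and less RNA per cell cannot be told apart.

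Of the 7 genes, 5 rose in RWV cultures, none fell, and DST and PLEC did not pass the test (limma, Benjamini-Hochberg adjusted over all genes, threshold 0.05). Over all genes 30.2% were called, 14.8% higher and 15.4% lower. The median log2 change was 1.05 over the 7 genes and 0.00 over all genes. In 4 of the 7 every RWV value lay above every Mono value, which held for 10.7% of all genes, and 23.1% of all genes had no overlap in either direction. The genes were proposed with results of these data known, so the counts are a description. In what follows, intensities are quantile normalised, changes are on the scale of log2(intensity + 50) as RWV minus Mono, a value after ± is limma's standard error unless an SD is named, and each group has 5 arrays (n = 5).

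**Figure D1:**
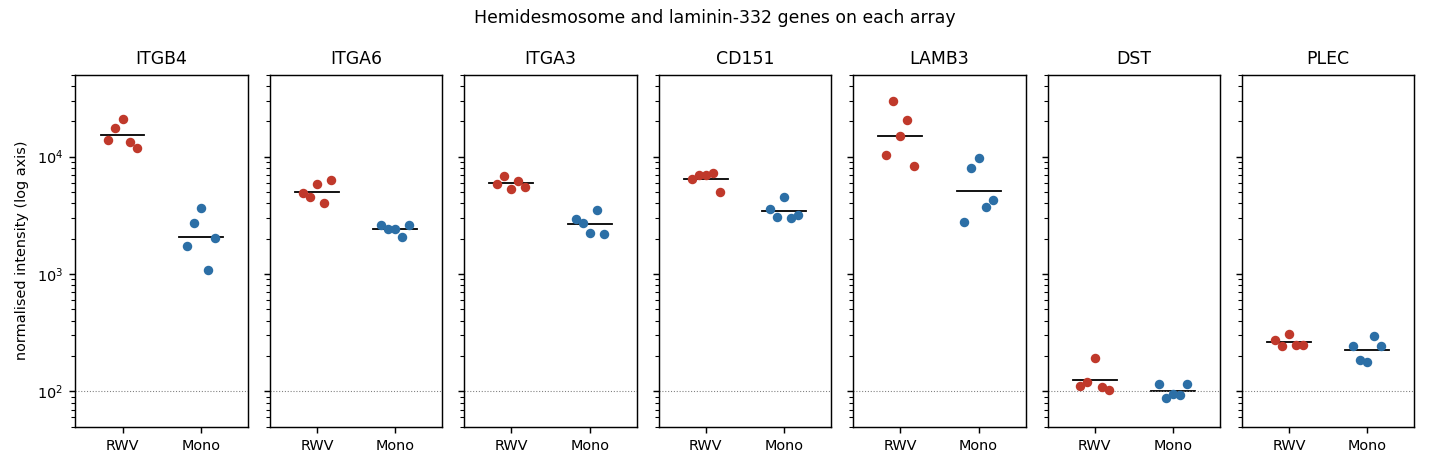
Normalised intensity of the 7 measured genes on each array (points, in order of replicate number; log axis) in RWV and Mono cultures, with the group mean taken on the log2 scale (line) and the dim level of 100 (dotted). ITGB4, ITGA6, ITGA3 and CD151 do not overlap between the groups, LAMB3 overlaps in part, and DST and PLEC overlap.

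ITGB4, the β4 integrin chain that defines hemidesmosomes and carries their long tail inside the cell, had the largest change of the 7. Its normalised intensity was 13902, 17485, 21045, 13300.3 and 11818 on RWV arrays 1 to 5, against 1723, 2746, 3665, 1083 and 2017 on Mono arrays 1 to 5. The lowest RWV value was thus above the highest Mono value, and RWV 3, the RWV array with most MKI67 signal, was the highest. ITGB4 rose 7.17-fold, by 2.84 ± 0.28 on the log2 scale (limma adjusted p = 4.8e-05), more in absolute size than 99.0% of genes. Within array sets 1 and 2 the change was 2.66 ± 0.27 and 3.10 ± 0.34 (limma adjusted p = 0.0047 and 0.032).

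ITGA6 encodes the α6 chain, the only known partner of β4, which can also pair with β1. It stood at 4915, 4488, 5852, 3998 and 6300 on RWV arrays 1 to 5, against 2605, 2404, 2412, 2070 and 2598 on Mono arrays. All RWV arrays were higher, with RWV 5 and RWV 3 at the top, and the Mono arrays lay close together. ITGA6 rose 2.07-fold, by 1.05 ± 0.13 (limma adjusted p = 0.00018), and the change was 0.99 and 1.13 within array sets 1 and 2.

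The 2 chains of α6β4 rose unequally. The difference between the log2 values of ITGB4 and ITGA6 was 1.49, 1.95, 1.84, 1.72 and 0.90 on RWV arrays 1 to 5, against -0.58, 0.19, 0.59, -0.90 and -0.36 on Mono arrays. The groups did not overlap, though RWV 5 came near Mono 3. This difference averaged 1.58 ± 0.42 in RWV and -0.21 ± 0.60 in Mono cultures (SD, n = 5 each), so that ITGB4 rose by 1.79 more than ITGA6. The exact two-sided permutation test over the arrays gave p = 0.0079, the smallest it can give, and p = 0.024 after Benjamini-Hochberg adjustment over the 3 complex pairs tested. Values of different spots cannot be set against each other as levels, so only the inequality of the changes can be read from this. Each chain had 1 spot, and spots of 1 gene can differ in change, those of ITGB1 running from 0.09 to 0.50. The inequality is thus one between 2 single spots.

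**Figure D2:**
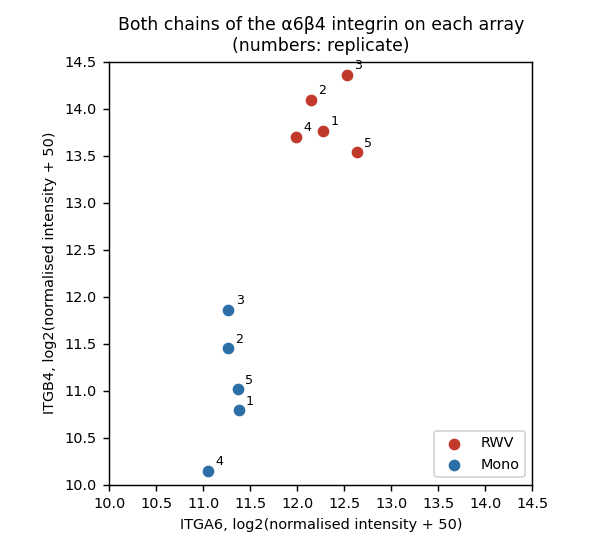
ITGB4 against ITGA6 on each array, both as log2(normalised intensity + 50) on axes of equal length, in RWV and Mono cultures; numbers are replicates. The RWV arrays lie higher on both axes, by 2.84 for ITGB4 and by 1.05 for ITGA6.

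ITGA3, the α3 chain of the laminin receptor α3β1, rose to a similar degree as ITGA6. It measured 5852, 6899, 5303, 6167 and 5563 on RWV arrays 1 to 5, against 2952, 2700, 2220, 3537 and 2203 on Mono arrays. The groups were clearly apart, and the RWV arrays varied less among themselves (SD 0.15 on the log2 scale) than the Mono arrays (SD 0.28). The rise was 2.19-fold, 1.13 ± 0.14 on the log2 scale (limma adjusted p = 0.00015), with 1.15 and 1.08 within array sets 1 and 2.

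The β1 chain that pairs with α3 is encoded by ITGB1, which had 12 spots. Its mean over them was 15377 in RWV against 12523 in Mono cultures. This log2 change of 0.30 ± 0.19 did not pass the test (limma adjusted p = 0.28). With the array set as a block ITGB1 also did not pass (limma adjusted p = 0.062). With the replicate number as a block it did (limma adjusted p = 0.049), so the call depends on the fit. Single spots changed by 0.09 to 0.50 and none of the 12 passed by itself, and 1 of them, at a mean of 64457 in RWV against 60360.3 in Mono cultures, was near the top of the recorded range.

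CD151 is the tetraspanin that binds α3β1 and α6β4 in the membrane. It lay at 6478, 7012, 6927, 7255 and 4968 on RWV arrays 1 to 5, against 3558, 3083, 4552, 2998 and 3183 on Mono arrays. RWV 5 was the lowest RWV array and Mono 3 the highest Mono array, without overlap. The gene rose 1.87-fold, by 0.90 ± 0.14 (limma adjusted p = 0.00065), and the change was 0.86 and 0.97 within array sets 1 and 2. Set against ITGA3 the changes differed by 0.23 on the log2 scale, which did not pass the exact permutation test (p = 0.36, adjusted 0.54). The difference of their log2 values averaged -0.12 ± 0.21 in RWV and -0.35 ± 0.46 in Mono cultures (SD, n = 5 each).

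LAMB3, the β3 chain found in laminin-332, rose as well but varied most from array to array. Its values were 10365, 29704, 14993, 20513 and 8254 on RWV arrays 1 to 5, against 2763, 8013, 9661, 3705 and 4298 on Mono arrays. RWV 5 fell below Mono 3, so the groups overlapped. Mono 2 and Mono 3, the highest Mono arrays for LAMB3, were also the highest for ITGB4, while among RWV arrays the order of these genes was not the same. LAMB3 rose 2.94-fold, by 1.56 ± 0.40 (limma adjusted p = 0.011), with SDs of 0.74 in RWV and 0.76 in Mono cultures on the log2 scale. Within array set 1 the change was 1.45 ± 0.52 and within set 2 it was 1.72 ± 0.47, and neither passed alone (limma adjusted p = 0.10 and 0.13).

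The 4 calls other than LAMB3 also passed within array set 1 (3 against 3 arrays). Within set 2 (2 against 2) ITGB4 alone did, ITGA6, ITGA3 and CD151 giving limma adjusted p-values of 0.11, 0.12 and 0.11.

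DST encodes dystonin, whose epithelial form ties α6β4 to keratin, and whose other forms serve nerve and muscle. Averaged over its 5 spots it stood at 112, 121, 194, 109 and 104 on RWV arrays 1 to 5, against 116, 88.1, 94.3, 94.0 and 116 on Mono arrays. These are values near the dim level, the groups overlapped, and RWV 3 stood apart. The log2 change of 0.21 ± 0.14 did not pass the test (limma adjusted p = 0.28), and it was 0.09 without RWV 3. Its 5 spots gave estimates from -0.13 to 0.44, and differences between these spots were not tested. The brightest, annotated to transcript NM_015548, measured 455, 477, 644, 390 and 489 on RWV arrays, against 385, 308, 366, 313 and 349 on Mono arrays, and rose by 0.44 ± 0.13 (limma over single spots, adjusted p = 0.024). Without normalization between arrays this spot changed by 0.21 ± 0.20 and did not pass (limma adjusted p = 0.54). Another spot annotated to the same transcript stood at 125 in RWV against 94.8 in Mono cultures. It changed by 0.28 ± 0.15 and did not pass (limma over single spots, adjusted p = 0.22). The spot annotated to NM_001723, the epithelial form, was below 100 on 4 of 5 RWV and 5 of 5 Mono arrays, with a log2 change of -0.13 ± 0.22 (limma adjusted p = 0.73). A further spot changed by 0.41 ± 0.15 and did not pass (limma adjusted p = 0.069), below 100 on 4 of 5 RWV and 5 of 5 Mono arrays. The remaining spot changed by 0.07 ± 0.15 (limma adjusted p = 0.80) and was below 100 on 3 of 5 arrays of each group. Without replicated signal above the dim level, the epithelial form cannot be followed here.

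PLEC encodes plectin, the large linker between α6β4 and keratin. Of its 3 spots 2 were dim on every array. The third read 3461, 2993, 4433, 2626 and 2933 on RWV arrays 1 to 5, against 2864, 1902, 1941, 4318 and 2563 on Mono arrays. The groups overlapped, with Mono 4 close to the highest RWV array. This spot changed by 0.31 ± 0.22 (limma over single spots, adjusted p = 0.35), and the gene over its 3 spots by 0.18 ± 0.13 (limma adjusted p = 0.34), from 0.33 within array set 1 to -0.11 within set 2. Between DST and PLEC the changes differed by 0.03 (exact permutation p = 0.81, adjusted 0.81). Both averages include spots below 100 on most arrays, whose changes are understated, so this small difference says little about the 2 genes. With the brightest spot of each gene it was 0.13 (exact permutation, adjusted p = 0.73). Of the 13 spots of the 7 genes, 6 passed the test of single spots, against 28.6% of all spots.

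**Figure D3:**
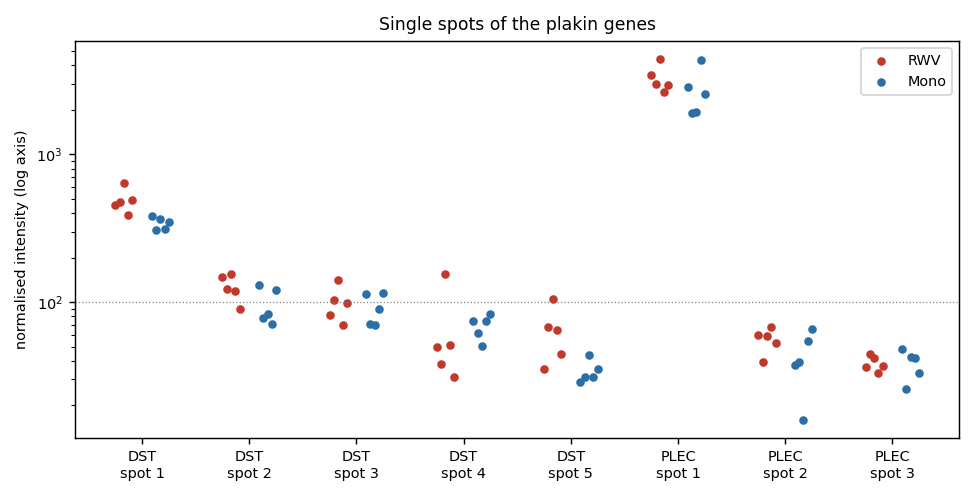
Normalised intensity of each spot of DST (5 spots) and PLEC (3 spots) on RWV and Mono arrays (5 points each, log axis; dotted line, the dim level of 100), with spots numbered from the brightest in Mono cultures. The brightest DST spot lies higher on all RWV arrays, and 2 PLEC spots stay below 100 throughout.

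Other laminin chains changed in both directions. Of 9 measured members 3 rose, 1 fell and 5 did not pass, where 14.8% of all genes rose and 15.4% fell. The median log2 change of these chains was -0.02. LAMB2, the β2 chain of basement membranes of muscle and kidney, rose by 1.84 ± 0.19, to 26299 in RWV against 7298 in Mono cultures (limma adjusted p = 6.1e-05). LAMC3, the γ3 chain, fell by 1.28, to 111 in RWV against 342 in Mono cultures (limma adjusted p = 0.0022). LAMA5, the broadly expressed α5 chain, rose by 0.58 ± 0.18 (limma adjusted p = 0.028), a call that leaving out Mono 2, 3 or 4 or RWV 1 singly removed (adjusted p 0.052 to 0.065) and that was also absent without normalization between arrays (0.53).

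Basement membrane collagens also changed in both directions. In the list of basement membrane and anchoring genes 5 of 14 measured rose and 2 fell, against 14.8% and 15.4% of all genes. The median log2 change of the list was 0.11. COL4A6 and COL4A5, which assemble into one type IV collagen network, rose by 1.72 ± 0.23 and 1.11 ± 0.17 (limma adjusted p = 0.00024 and 0.0006). COL4A2, one chain of the common type IV collagen, fell by 3.07, to 1787 in RWV against 15417 in Mono cultures (limma adjusted p = 6.3e-05).

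Tetraspanins related to CD151 rose in 4 of 5 cases, where 14.8% of all genes did, with a median log2 change of 0.96. The remaining gene, CD63, was near the top of the recorded range, at 61953 in RWV against 64858 in Mono cultures, so a change in it could not be read. CD82 rose by 2.42 ± 0.26, to 2795 in RWV against 481 in Mono cultures, TSPAN4 by 1.14 ± 0.10 and CD9 by 0.96 ± 0.16 (limma adjusted p = 7.3e-05, 2.9e-05 and 0.001). CD82 and CD9 are known partners of laminin-binding integrins in the membrane.

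The remaining lists held 1 or more calls each, apart from the keratins. Over all genes 14.8% were called higher and 15.4% lower, so single calls in such short lists are not read as results about the lists. Among other laminin receptors 1 of 7 measured rose, the collagen and laminin receptor chain ITGA2, by 0.70 ± 0.21 (limma adjusted p = 0.027). That call was lost without any of 3 arrays (Mono 1, or RWV 1 or 5; adjusted p 0.057 to 0.065) and without normalization (0.15). Of 5 other plakins 1 rose, the desmosome and envelope protein gene PPL, by 1.14 ± 0.18 (limma adjusted p = 0.00067). None of the 4 linked keratins passed. KRT5 was dim in both groups, with a log2 change of -0.17 ± 0.10 (limma adjusted p = 0.25). KRT14 changed by 0.17 ± 0.12 (limma adjusted p = 0.35). KRT8 and KRT18 changed by -0.30 ± 0.23 and 0.08 ± 0.08 (limma adjusted p = 0.39 and 0.52). Spots of KRT8 and KRT18 reached the top of the recorded range, so a change in them could be understated. Of the 5 proteases that trim laminin-332, BMP1 rose by 0.89 ± 0.13 (limma adjusted p = 0.0004) and 3 were dim in both groups. MST1R, the receptor for macrophage-stimulating protein, which is known to act on α6β4 in keratinocytes, was the 1 of 4 measured regulators that rose, by 1.09 ± 0.19 (limma adjusted p = 0.0012).

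Focal adhesions are the other main way by which cells hold on to matrix. Of their 10 genes measured, 1 rose and 2 fell, with a median log2 change of -0.15, and this share of calls is close to the 30.2% of all genes. The vitronectin receptor chain ITGAV rose by 0.66 ± 0.12 (limma adjusted p = 0.0012), though not without normalization between arrays (0.40). The kindlin gene FERMT2 fell by 0.69, to 207 in RWV against 365 in Mono cultures (limma adjusted p = 0.0042), and the actin linker VCL fell by 0.74 (adjusted p = 0.026). The VCL call was lost without any of 5 arrays (Mono 1, or RWV 1, 2, 4 or 5; adjusted p 0.051 to 0.066). A difference between this list and the hemidesmosome genes was not tested.

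**Figure D4:**
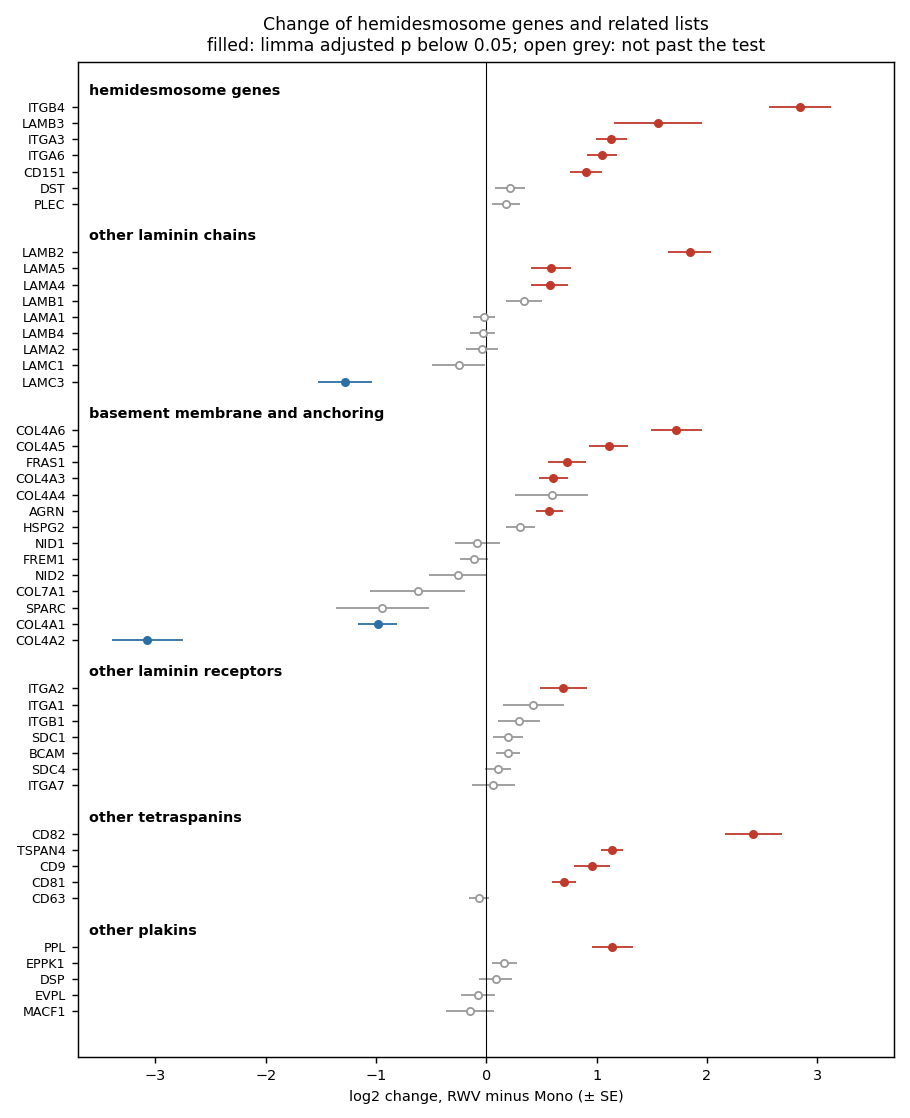
Log2 change (RWV minus Mono, ± SE of the limma fit) of the 7 genes and of 5 related lists, ordered by change within each. Filled red and blue points are higher and lower at a limma adjusted p below 0.05, and open grey points did not pass; ITGB4 at 2.84 and COL4A2 at -3.07 are the outermost.

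The genes whose values were closest to those of ITGB4 over the 10 arrays, each centred on its own Mono mean, were LGR6, TTLL6 and DEPP1 among 13679 other genes not dim in both groups. The root mean square differences were 0.25, 0.35 and 0.39 on the log2 scale. LGR6, an R-spondin receptor, changed by 2.79 ± 0.18, at 1757 in RWV against 211 in Mono cultures. For LAMB3 they were the simple epithelial keratin KRT19, the liver oxidase gene HAO1 and the sulfatide synthesis gene GAL3ST1, with differences of 0.31, 0.32 and 0.34. KRT19 changed by 1.55 ± 0.36 and reached the upper end of the intensity range on some arrays, and HAO1 averaged 87.5 in Mono cultures, under the dim level. These likenesses are over arrays that share the culture contrast and are given as a description.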

How the data were processed

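Cy3-labelled RNA of 5 RWV and 5 Mono cultures was read on one-colour arrays, and samples were grouped by title. The authors deposited an intensity for each of 45220 spots, as whole numbers from -66 to 65493, so background appears to have been subtracted. The sources used here do not name the scanner, the extraction software or a build. RNA came from a silica column kit and an Agilent labelling kit, per the labels' protocols. The platform annotation named 31332 spots with 1 symbol, and 31291 of them matched RefSeq (GRCh38.p14) by gene number with no symbol changed. Another 93 spots had several symbols and 13795 (30.5%) had no annotation used here, and both were left out.

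Intensities of the spots with 1 symbol were quantile normalised (limma 3.58.1, R 4.3.3). Negative values became 0, 50 was added and log2 taken, which understates changes of dim genes. Spots of a gene were averaged, and 10575 of 18334 genes had 1. The test was limma's lmFit and eBayes (two-sided), and p-values were adjusted by Benjamini-Hochberg across the whole table. Dim means below 100 for every spot of the gene on every array of the group. Single spots were fitted likewise, and pairs of partners by exact permutation. LAMA3 with LAMB3, the fourth pair planned, could not be run. The members, the 9 related lists, the settings and the normalization were chosen with earlier results of these data known. Beyond the members, the text names up to 3 called genes with the largest change of each list (with none called, the lowest p), ITGB1, KRT5 and KRT14, and the 3 genes nearest to ITGB4 and to LAMB3. KRT15 and MKI67 were added after their values were seen. No pair of arrays had the same value in more than 1.46% of spots. The number of arrays limits the precision. In R, data.table (1.17.8) loaded the tables, and Python 3.11.15 drew the figures, using pandas 2.3.3 and matplotlib 3.10.9.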

Additional observations from a re-analysis of the deposited data

Results flagged for a closer look

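In 3 of the 64 groups of 5 values examined (32 genes, RWV and Mono), 1 array lay far from the other 4, where chance alone gives about 1 in 20. DST measured 194 on RWV 3, against 104 to 121 on the other RWV arrays. MST1R was at 2092 on RWV 3, with 1099.5 to 1154 on the remaining RWV arrays, and it rose by 0.92 without that array (limma adjusted p = 0.00057). LAMA5 was at 5476 on RWV 1 and at 3300.4 to 3788 on the other RWV arrays. Without RWV 1 it changed by 0.47 and was no longer past the test (limma adjusted p = 0.065).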

How the results depend on the processing

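The changes of ITGB4, ITGA6, ITGA3, CD151 and LAMB3 kept their direction under all 24 alternatives. ITGB4 passed the test under each of them (2.49 to 3.10), and the other 4 lost it only within an array set, as given above. The number of these genes higher in RWV was 5 without any 1 array and fell to 1 within array set 2. PLEC reversed there, at -0.11 (limma adjusted p = 0.78). DST passed when the brightest spot stood for the gene (0.44, limma adjusted p = 0.022). Without normalization between arrays ITGB4, LAMB3, ITGA3, ITGA6 and CD151 changed by 2.56, 1.29, 0.83, 0.76 and 0.61 and still passed, over a median of all genes of -0.13. In that fit 1037 genes passed as higher and 2518 as lower, and rises made up 29.2% of calls, against 49.0% in the reported fit (2708 and 2821). Among single spots 4 of the 13 then passed, against 18.2% of all spots, and those of ITGA6 (limma adjusted p = 0.054 over spots, 0.045 over genes) and the brightest of DST (0.54) did not. Within array set 1 the counts were 1505 and 1715, and within set 2 they were 291 and 331, with fewer arrays in each. Without any 1 array, 2184 to 2808 genes were higher and 2298 to 2835 lower. The excess of the ITGB4 change over that of ITGA6 was 1.61 to 1.997 without any 1 array, that of ITGA3 over CD151 was 0.06 to 0.37, and that of DST over PLEC ran from -0.065 to 0.085, turning its sign without Mono 4 (-0.065) or RWV 3 (-0.041). Of the 26 other genes named, 23 were called, none of these reversed, and 7 were called under every alternative. KRT14 reversed with its brightest spot (-0.050). Whether equal replicate numbers pair the arrays was not settled, and the labels name no shared source for them. Correlation within such pairs was above 0.1 in 3 of 5. The Mono array of the same number was the best match for 3 of 5 RWV arrays. With the replicate number as a block 2680 genes were higher and 2719 lower, and all 5 calls passed. ITGB1 passed in that fit (0.30, limma adjusted p = 0.049) and VCL did not (0.074). Leaving out Mono 4 and RWV 3, or normalising over all spots, both chosen after seeing the data, left the same 5 genes called, and LAMA5 was not called without these arrays. The number of arrays and the dim signal of DST limit what can be read.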
